A study of Rattus norvegicus with 17 samples.

Results

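The genes described here encode 10 enzymes that turn cholesterol into conjugated bile acids in the liver: Cyp7a1, Cyp8b1, Cyp27a1, Cyp7b1, Hsd3b7, Akr1d1, Amacr, Acox2, Slc27a5 and Baat. They were taken as a fixed list of symbols, and every probe set that the array annotation assigns to exactly 1 of them was used. This gave 11 of 31099 probe sets, with 2 for Akr1d1 and 1 for each other gene, set among 14217 annotated genes.

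Bile acids are made in hepatocytes by a classic route, which hydroxylates the cholesterol ring first and is limited by Cyp7a1, and by an alternative route, which starts at the side chain with Cyp27a1. Both routes share enzymes that change the sterol ring, peroxisomal enzymes that shorten the side chain, and enzymes that join the product to taurine or glycine. Bile acids that build up in the hepatocyte restrain the first steps through the receptor FXR (Nr1h4) and the repressor SHP (Nr0b2), which is why the pathway is commonly followed when bile flow is blocked.

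Liver RNA was measured on 17 Affymetrix Rat Genome 230 2.0 arrays, 1 per rat. The 5 ligated ghrelin rats had the bile duct tied off and received recombinant ghrelin, a stomach peptide hormone, at 10 µg/kg/day from an osmotic minipump under the skin. The 6 ligated saline rats had the same ligation and a pump with saline, and in the 6 sham rats the abdomen was opened without ligation before saline was given in the same way. All operations were at week 7 and all livers were taken at week 9, after 2 weeks. Strain and sex are not given in the labels used here, no ghrelin-treated sham group was analysed, and the arrays carry titles that do not separate the groups, so the groups rest on the source labels. Values are GCRMA intensities per probe set, given here as log2, and a probe set is called measured above a level of 3.95, the median of all deposited values.

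The median intensity per array lay between 15.4 and 16.4 in ligated ghrelin, between 16.1 and 17.5 in ligated saline and between 14.2 and 14.7 in sham livers. The 3' minus 5' log2 difference of the GAPDH control, which rises as RNA degrades, was 0.62 on the ligated ghrelin 3 array and at most 0.28 on the other arrays, and that array also had the highest value for beta-actin, 2.62. The changes of Acox2, Hsd3b7 and Cyp27a1 in ligated ghrelin livers, where ligated ghrelin 3 was the lowest array, are also given without it. It was the lowest array for Akr1d1 too, whose call against sham was lost without it. The source is liver: the 10 measured hepatocyte markers, albumin among them, had group means of 14.03 to 15.88, near the array maxima of 15.79 to 15.92, where a difference can be compressed.

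The sequence upstream of these genes is shown for the 2 enzymes that were lowest after ligation relative to sham, Cyp8b1 and Amacr, and for the 2 in which a searched motif was found, Cyp27a1 and Baat. Sequences are from RefSeq on the assembly GRCr8, run 5′ to 3′ from 250 bases before to 50 bases after the gene start, and were found for 7 of the 10 genes (Cyp8b1, Cyp27a1, Hsd3b7, Amacr, Acox2, Slc27a5 and Baat). Capitals mark a motif match.
Cyp8b1, chr8:130457543-130457842, minus strand: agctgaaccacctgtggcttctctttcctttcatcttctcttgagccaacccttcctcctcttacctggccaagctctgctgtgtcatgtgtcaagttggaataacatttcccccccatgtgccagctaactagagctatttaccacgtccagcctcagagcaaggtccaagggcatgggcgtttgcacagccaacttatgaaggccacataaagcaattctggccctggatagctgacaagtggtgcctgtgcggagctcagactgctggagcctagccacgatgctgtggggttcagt
Amacr, chr2:61673085-61673384, plus strand: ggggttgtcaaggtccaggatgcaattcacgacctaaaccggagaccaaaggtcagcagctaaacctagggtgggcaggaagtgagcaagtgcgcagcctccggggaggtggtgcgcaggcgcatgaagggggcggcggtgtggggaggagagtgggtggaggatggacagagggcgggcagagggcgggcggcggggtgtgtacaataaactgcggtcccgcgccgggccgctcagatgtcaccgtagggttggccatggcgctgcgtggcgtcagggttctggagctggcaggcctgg
Cyp27a1, chr9:83713282-83713581, plus strand: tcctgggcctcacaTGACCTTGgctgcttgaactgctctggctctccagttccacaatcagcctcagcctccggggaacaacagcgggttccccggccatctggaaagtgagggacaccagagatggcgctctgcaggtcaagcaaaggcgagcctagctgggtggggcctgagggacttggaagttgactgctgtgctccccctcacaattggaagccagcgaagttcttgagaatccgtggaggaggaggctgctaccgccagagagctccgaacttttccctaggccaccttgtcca
Baat, chr5:68656088-68656387, minus strand: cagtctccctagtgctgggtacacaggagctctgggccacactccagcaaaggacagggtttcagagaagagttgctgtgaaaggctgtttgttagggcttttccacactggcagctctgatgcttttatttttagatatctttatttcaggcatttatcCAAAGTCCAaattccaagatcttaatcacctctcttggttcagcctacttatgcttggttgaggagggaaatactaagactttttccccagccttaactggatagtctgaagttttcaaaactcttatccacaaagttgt

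The motifs searched on both strands were AGGTCA repeated head to tail with 1 base between (DR1), AGGTCA as an inverted repeat with 1 base between (IR1, the FXR form), CAAAGTCCA (an HNF4 core), CAAGGTCA (the LRH-1 form), TTATGTAA (the D-box), GTTAAT (an HNF1 form) and TATAAA. The Baat window holds the HNF4 core from -90 to -82, which 0.391% of all 33469 promoter windows hold, and the Cyp27a1 window holds the LRH-1 form on the minus strand from -236 to -229, which 1.52% hold. None of the 7 motifs overlapped another in these windows, and the windows of Cyp8b1, Hsd3b7, Amacr, Acox2 and Slc27a5 hold none of them. A match is a run of letters in the window and no evidence of binding.

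After ligation most steps of the pathway were lower, with the largest falls at Cyp8b1 and the side chain enzyme Amacr, while Cyp7a1 was not called. Between ligated saline and sham rats, 7 of the 9 enzymes that could be tested fell, 0 rose and 2, Cyp7a1 and Cyp27a1, were not called. Called means an adjusted p under 0.05 in limma, with Benjamini-Hochberg adjustment over all 15965 measured probe sets, of which 27.3% were called lower and 34.2% higher. Of all calls 55.7% were higher on the deposited values and 39.0% with array medians set equal, so this background depends on the scaling. The median change over the 9 enzymes was -0.72 on the log2 scale, against 0.04 over all measured probe sets. All 9 were above the measurement level on all 17 arrays, so none entered the test through 1 group alone. For 4 of them, Cyp8b1, Hsd3b7, Amacr and Acox2, every ligated saline value lay below every sham value, which held for 18.1% of measured probe sets.

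**Figure D1:**
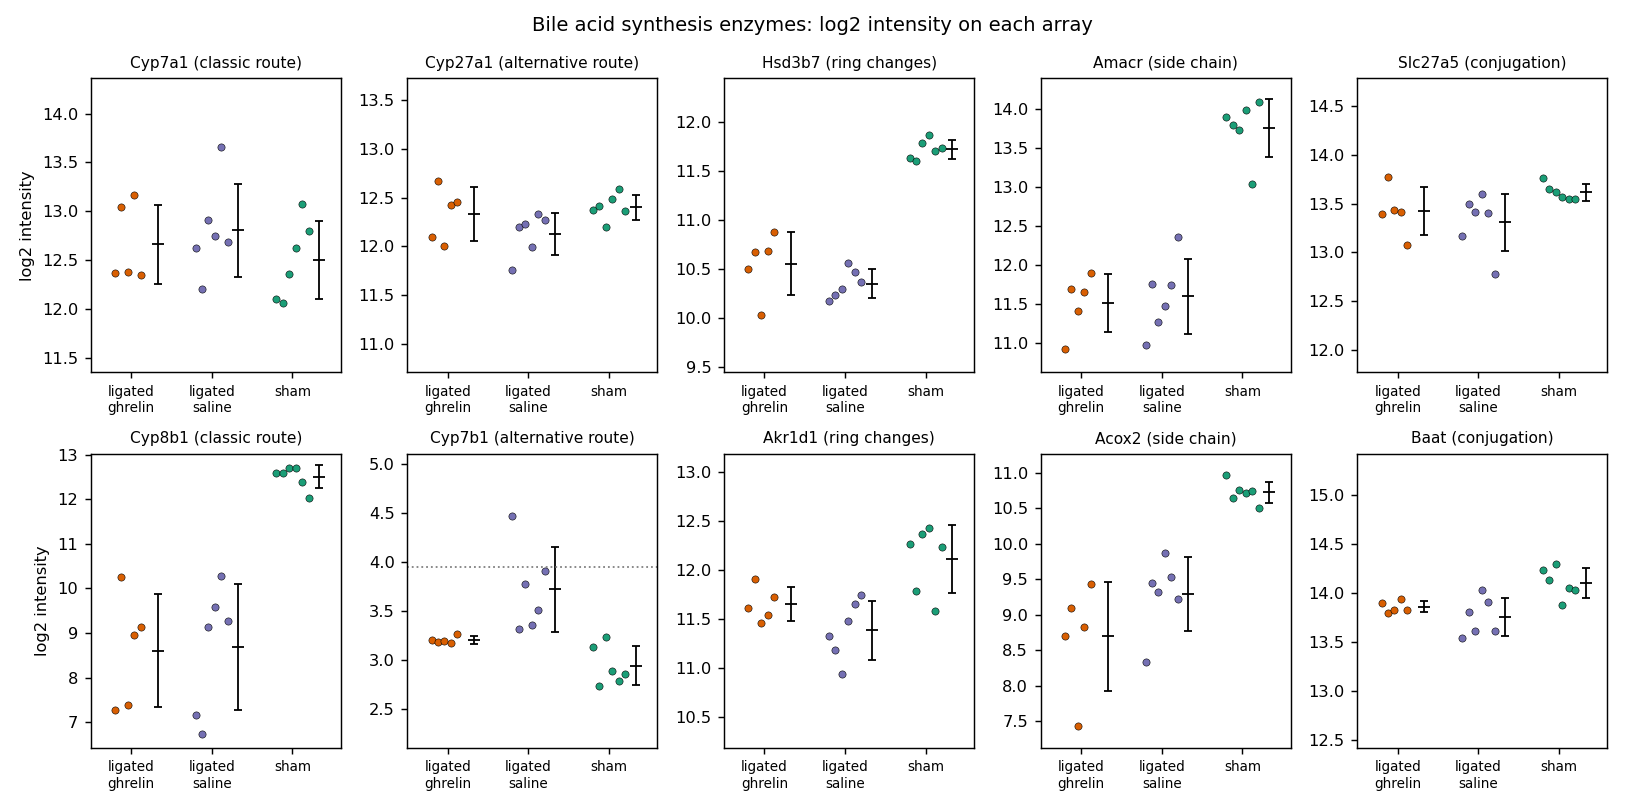
Log2 intensity of the 10 enzymes on each array, with ligated ghrelin, ligated saline and sham rats from left to right, 1 point per rat and the mean ± SD beside each group. Both ligated groups lie wholly below sham for Cyp8b1, Hsd3b7, Amacr and Acox2, while the groups overlap for Cyp7a1 and Cyp27a1; the dotted line for Cyp7b1 is the measurement level of 3.95.

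In the classic route, the 2 enzymes differed from each other. Cyp7a1, the rate-limiting hydroxylase, had log2 values of 12.21 to 13.66 in ligated saline livers (median 12.71) and 12.06 to 13.07 in sham livers (median 12.49). The groups overlapped over most of their range, and the change was 0.30 ± 0.233 (log2 ± SE, limma adjusted p = 0.272, 95% interval -0.19 to 0.79, higher in 5 of 6 rats). The Cyp7a1 change was 0.13 without ligated saline 5 and 0.11 with array medians set equal. Cyp8b1, the sterol hydroxylase that directs synthesis to cholic acid, had values of 6.73 to 10.27 in ligated saline livers (median 9.20) and 12.03 to 12.71 in sham livers (median 12.59). It fell by 3.81 ± 0.582 on the log2 scale, or 14.0-fold, in 6 of 6 rats (limma adjusted p = 2.8e-05), the 40th lowest change of the 15965 measured probe sets. The spread of Cyp8b1 among rats was also wider after ligation, with an SD of 1.42 in ligated saline livers and 0.26 in sham livers.

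The relation between Cyp7a1 and Cyp8b1 was followed within each array. The log2 value of Cyp7a1 minus that of Cyp8b1 was 4.11 ± 1.07 in ligated saline livers (SD, n = 6) and 0.00 ± 0.58 in sham livers (n = 6), with no overlap between the groups. The shift of 4.11 had an exact two-sided permutation p = 0.00216, the smallest this design can give, and an adjusted p = 0.00812 over 15 such tests (5 pairs in 3 comparisons). The 5 pairs were added after the data were seen. This p therefore describes the unequal change of the 2 enzymes already given and is no separate support for it. Cyp7a1 minus Cyp27a1, which sets the starting enzymes of the 2 routes against each other, shifted by 0.57 with an exact permutation adjusted p = 0.0812 and did not pass.

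In the alternative route, Cyp27a1, the mitochondrial hydroxylase that starts this route and also oxidises the side chain of classic route products, had values of 11.76 to 12.34 in ligated saline livers (median 12.21) and 12.20 to 12.58 in sham livers (median 12.39). Its change of -0.27 ± 0.12 was not called (limma adjusted p = 0.0609), although 6 of 6 rats lay below the sham mean. It passed with array medians set equal (-0.46, adjusted p = 0.00467). It also passed without sham 3, ligated saline 5, ligated ghrelin 2 or ligated ghrelin 3 (lowest adjusted p = 0.043) or when sham and ligated saline arrays were fitted alone (adjusted p = 0.0396). Cyp7b1, the oxysterol hydroxylase that follows Cyp27a1, was below the measurement level on 16 of 17 arrays. Its values were 3.17 to 3.27 in ligated ghrelin livers, 3.32 to 4.47 in ligated saline livers and 2.74 to 3.24 in sham livers. No fold is given for it, because only ligated saline 1 exceeded 3.95.

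The ring enzymes shared by both routes fell by different amounts. Hsd3b7, the dehydrogenase that acts on the hydroxylated sterol in the endoplasmic reticulum, had values of 10.17 to 10.56 in ligated saline livers (median 10.33) and 11.61 to 11.87 in sham livers (median 11.72). Its groups were far apart and narrow, and it fell by 1.38 ± 0.116, or 2.59-fold (limma adjusted p = 5.23e-08, 6 of 6 rats). Akr1d1, the reductase that sets the bent ring shape of bile acids, had values of 10.94 to 11.74 in ligated saline livers (median 11.40) and 11.58 to 12.43 in sham livers (median 12.25). The groups overlapped at their edges, and it fell by 0.72 ± 0.161, or 1.65-fold (limma adjusted p = 0.00093). Its second probe set gave -0.57 ± 0.188 (limma adjusted p = 0.0144) in the same comparison. Within arrays, Hsd3b7 minus Akr1d1 shifted by -0.65, with an exact permutation adjusted p = 0.00812 over the 15 tests. This pair was also added after the data were seen, so the p only describes the larger fall of Hsd3b7.

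Of the side chain enzymes of the peroxisome, Amacr was the next lowest after Cyp8b1, while Acox2 (-1.44) fell about as far as the ring enzyme Hsd3b7 (-1.38). The order of Acox2 and Hsd3b7 was reversed without ligated saline 1 (-1.24 and -1.34). Amacr, the racemase that turns the side chain into the form that can be shortened, had values of 10.97 to 12.37 in ligated saline livers (median 11.62) and 13.04 to 14.10 in sham livers (median 13.85). It fell by 2.16 ± 0.225, or 4.46-fold (limma adjusted p = 4.87e-07, 6 of 6 rats). The change was -2.30 when the low sham 5 array was left out. Acox2, the oxidase that opens the shortening of the side chain, had values of 8.33 to 9.88 in ligated saline livers (median 9.38) and at most 10.97 in sham livers (median 10.74), with the lowest sham value above the highest ligated one. It fell by 1.44 ± 0.281, or 2.71-fold (limma adjusted p = 0.000311, 6 of 6 rats). The difference between the 2 enzymes, a shift of -0.72 in Amacr minus Acox2, did not pass (exact permutation adjusted p = 0.0812).

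The conjugation enzymes moved least among those that were called. The sham mean of Baat, 14.11, lay in the range of the hepatocyte markers, where a difference can be compressed, and this was not tested for Baat. Baat, the transferase that joins bile acids to taurine or glycine, had values of 13.55 to 14.03 in ligated saline livers (median 13.71) and 13.88 to 14.30 in sham livers (median 14.09), and it fell by 0.35 ± 0.0918, or 1.28-fold (limma adjusted p = 0.00321). Slc27a5, the synthetase that activates bile acids before Baat acts, had values of 12.78 to 13.60 in ligated saline livers (median 13.40) and 13.54 to 13.76 in sham livers (median 13.59). Its change of -0.31 ± 0.128 passed narrowly (limma adjusted p = 0.0475) and is not a firm call. It was lost without any 1 of 13 of the 17 arrays (all but ligated saline 2 and 4 and ligated ghrelin 2 and 5), with a change of -0.20 and an adjusted p = 0.115 without ligated saline 6. The call was also lost after quantile normalization, with array weights and when arrays were centred on the hepatocyte markers (adjusted p = 0.0782, 0.0527 and 0.0829 in limma). Within arrays, Slc27a5 minus Baat was -0.45 ± 0.217 in ligated saline livers and -0.49 ± 0.115 in sham livers (SD, n = 6 each, exact permutation p = 0.66).

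**Figure D2:**
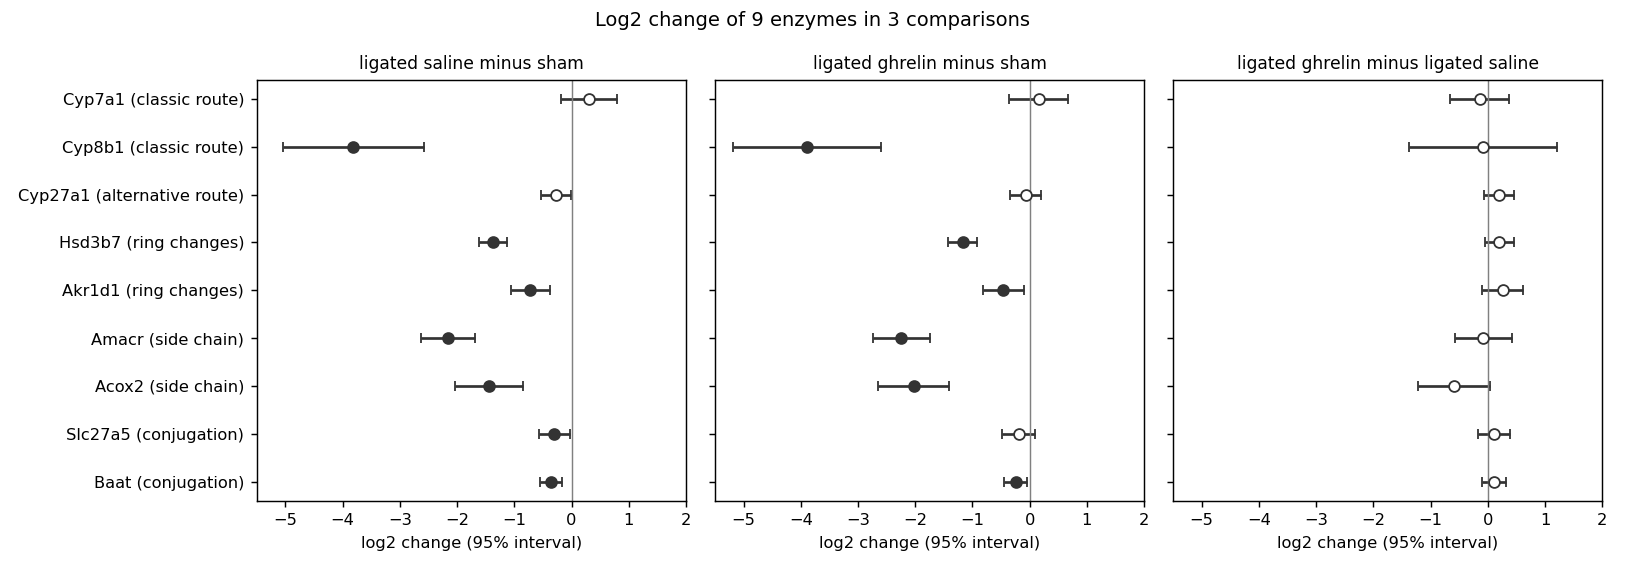
Log2 change of the 9 measured enzymes with its 95% interval from limma in 3 comparisons, ordered by step; filled points were called at an adjusted p under 0.05. Cyp8b1 and Amacr lie farthest below 0 against sham, and every interval of ligated ghrelin minus ligated saline includes 0.

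Ligated ghrelin rats were set against sham rats in a comparison that holds ligation and ghrelin together and shares its sham arrays with the one above. Of the 9 measured enzymes 6 fell, 0 rose and 3 (Cyp7a1, Cyp27a1 and Slc27a5) were not called, where 23.5% of measured probe sets were called lower and 29.9% higher. Of all calls 56.0% were higher on the deposited values and 43.1% with array medians set equal. The median change was -0.46, against 0.04 over all measured probe sets. The groups did not overlap for Cyp8b1, Hsd3b7, Amacr and Acox2, with all ligated ghrelin values lower, as for 14.9% of measured probe sets.

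Cyp8b1 had log2 values of 7.28, 10.25, 7.40, 8.97 and 9.14 in ligated ghrelin livers 1 to 5, all below the lowest sham value of 12.03. It fell 14.9-fold, with a 95% interval of -5.19 to -2.61 on the log2 scale (limma adjusted p = 5.42e-05). Amacr had values of 10.93, 11.69, 11.41, 11.66 and 11.90 in the same livers, against a lowest sham value of 13.04. It fell by 2.24 ± 0.236, or 4.73-fold (limma adjusted p = 9.95e-07), and the change was -2.39 without sham 5.

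Acox2 had values of 8.71, 9.09, 7.43, 8.82 and 9.44 in ligated ghrelin livers, lowest in ligated ghrelin 3, against a sham median of 10.74. It fell by 2.03 ± 0.295 (limma adjusted p = 2.62e-05), or 4.08-fold, and the change was -1.71 without ligated ghrelin 3. Hsd3b7 had values of 10.51, 10.68, 10.03, 10.69 and 10.88, against a lowest sham value of 11.61. It fell by 1.17 ± 0.122, or 2.25-fold (limma adjusted p = 8.95e-07), and the change was -1.04 without ligated ghrelin 3, whose value was again the lowest.

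Akr1d1 and Baat changed little and their calls were not firm. Akr1d1 had values of 11.61, 11.91, 11.46, 11.54 and 11.73 in ligated ghrelin livers, within the range of sham livers from 11.58 to 12.43 except for 2 rats, with a change of -0.46 ± 0.168 (limma adjusted p = 0.0294). Its second probe set was not called (-0.29, limma adjusted p = 0.22). The Akr1d1 call was lost without sham 1, 3, 4 or 6 or ligated ghrelin 1, 3 or 4 (highest limma adjusted p = 0.0699, without ligated ghrelin 3). Baat had values of 13.90, 13.80, 13.83, 13.94 and 13.83, with a change of -0.24 ± 0.0963 (limma adjusted p = 0.0413). That call was lost without sham 1, 2 or 3 or ligated ghrelin 1, 2, 3 or 5 (highest adjusted p = 0.0902). Both calls were also lost after quantile normalization (adjusted p = 0.0668 for Akr1d1 and 0.0643 for Baat).

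Cyp7a1 had values of 12.38, 13.05, 12.38, 13.17 and 12.35 in ligated ghrelin livers, inside the sham range of 12.06 to 13.07 for all but 1 rat, with a change of 0.16 ± 0.244 (limma adjusted p = 0.602). Cyp27a1 was at -0.07 ± 0.126 and Slc27a5 at -0.19 ± 0.134, neither of them called. The Cyp27a1 change was 0.01 without ligated ghrelin 3 and 0.02 after quantile normalization, so it has no settled direction. Within arrays, Cyp7a1 minus Cyp8b1 was 4.06 ± 1.03 in ligated ghrelin livers (SD, n = 5) and 0.00 ± 0.58 in sham livers (n = 6), a shift of 4.06 with an exact permutation adjusted p = 0.00812. The plot of Cyp7a1 relative to Cyp8b1 shows both ligated groups far above sham.

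**Figure D3:**
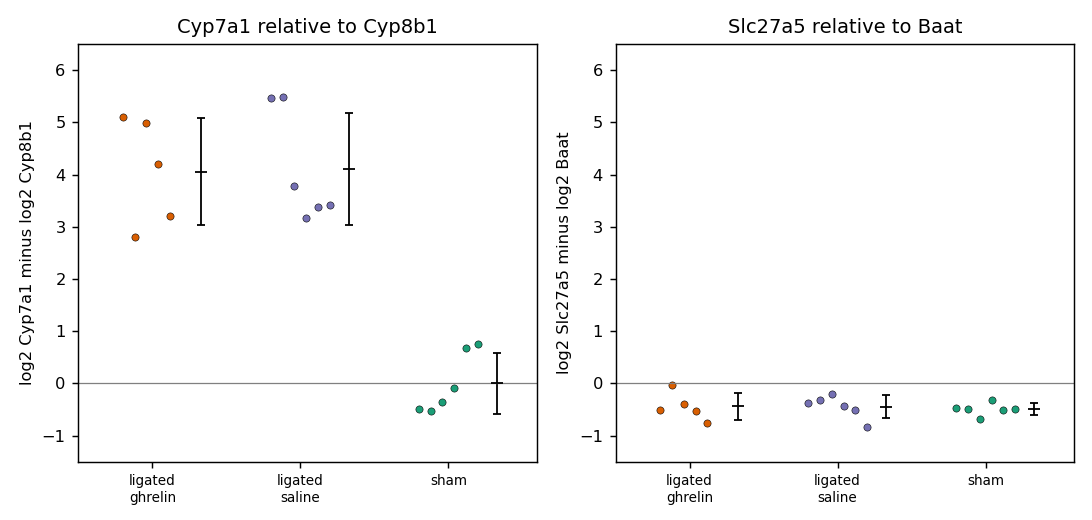
Difference in log2 intensity within each array between Cyp7a1 and Cyp8b1 (left) and between Slc27a5 and Baat (right), 1 point per rat with the group mean ± SD. For Cyp7a1 minus Cyp8b1, ligated ghrelin livers lie between 2.80 and 5.09, ligated saline livers between 3.16 and 5.48 and sham livers between -0.53 and 0.76; the conjugation pair stays between -0.83 and -0.03 in all groups.

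The comparison of ligated ghrelin with ligated saline rats asked what ghrelin added to ligation. None of the 9 enzymes was called by limma, where 2.22% of all measured probe sets were called at an adjusted p under 0.05. None had an unadjusted p under 0.05, a level at which all measured probe sets were not counted. The median change of the 9 was 0.11, against -0.02 over all measured probe sets. The ligated groups overlapped for all 9 enzymes. The share of all measured probe sets without overlap was not counted for this comparison, so the overlap is not read as a result about the enzymes. The 95% intervals were -0.66 to 0.38 for Cyp7a1, -1.37 to 1.21 for Cyp8b1, -0.58 to 0.42 for Amacr and -0.10 to 0.31 for Baat. They rest on 1 spread shared by all 3 groups, sham included, so they are no strict bound on what could have been missed. The interval of Cyp8b1 was the widest of these. Its SD was 1.26 in ligated ghrelin, 1.42 in ligated saline and 0.26 in sham livers, so the sham arrays narrowed its interval. A change anywhere within it, or somewhat outside it, in either direction, is compatible with these values, and no detection limit was computed.

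The change farthest from 0 was that of Acox2, at -0.59 ± 0.295 (limma adjusted p = 0.259, lower than the ligated saline mean in 4 of 5 rats), and it was at -0.27 without ligated ghrelin 3. Akr1d1 lay above the ligated saline mean in 5 of 5 rats (0.26 ± 0.168, limma adjusted p = 0.382), as did Baat (0.11 ± 0.0963, adjusted p = 0.542). Cyp27a1 (0.20 ± 0.126) and Hsd3b7 (0.20 ± 0.122) had values of similar size. Without ligated ghrelin 3, Cyp27a1 was at 0.28 and Hsd3b7 at 0.33 (limma adjusted p = 0.0836 for Hsd3b7). The within-array differences of the 5 pairs shifted by -0.34 to 0.51 between the ligated groups, and none passed (lowest exact permutation adjusted p = 0.376).

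**Figure D4:**
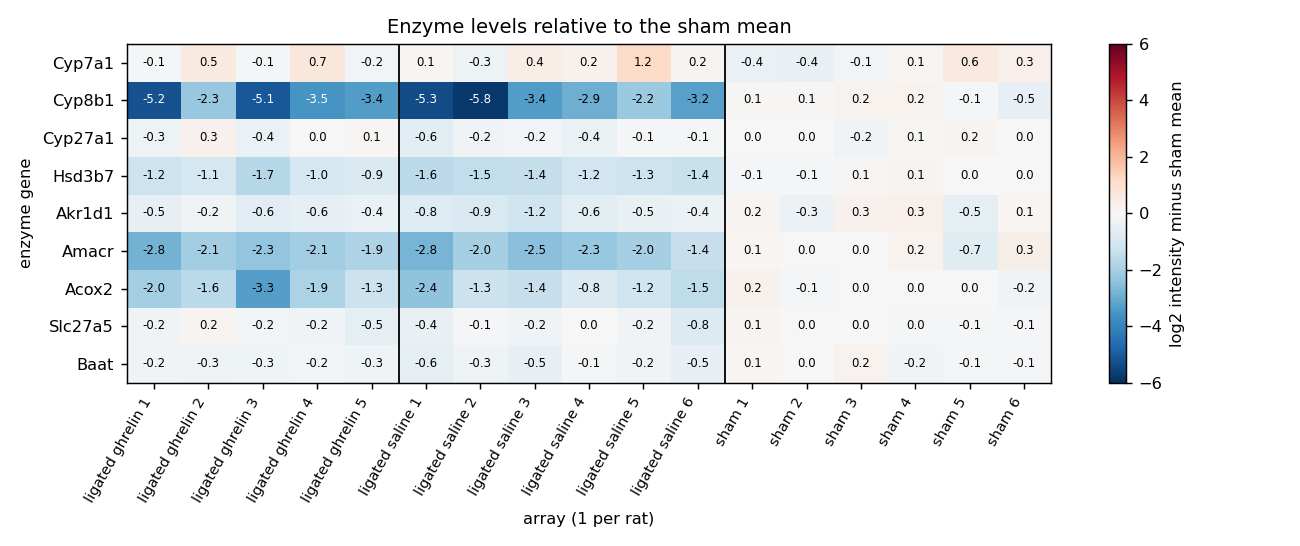
Log2 intensity minus the sham mean for 9 enzymes (rows) on 17 arrays (columns), from blue (lower) to red (higher), with the value in each cell. The row of Cyp8b1 holds the lowest values in all 11 ligated livers, with 4 of them more than 5 log2 units below the sham mean, and the rows of Cyp7a1, Cyp27a1, Slc27a5 and Baat show no comparable drop.

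The enzymes did not fall evenly over the ligated rats. The mean over the 9 enzymes relative to sham was -1.41, -0.73, -1.56, -0.98 and -0.96 in ligated ghrelin livers 1 to 5 and -1.60, -1.38, -1.15, -0.90, -0.72 and -1.02 in ligated saline livers 1 to 6. Ligated saline 1 had the lowest value of its group for 5 of the 9 (Cyp27a1, Hsd3b7, Amacr, Acox2 and Baat), and it also had the highest median intensity of all arrays and the lowest hepatocyte marker mean, -0.18. Ligated ghrelin 3 had the lowest value of its group for 4 of the 9 (Cyp27a1, Hsd3b7, Akr1d1 and Acox2) and the highest 3' to 5' control differences. The part of the array median, the hepatocyte marker level and RNA quality in these values was not tested. For Cyp8b1 these 2 arrays came second lowest in their groups, ligated ghrelin 3 (7.40) after ligated ghrelin 1 (7.28) and ligated saline 1 (7.16) after ligated saline 2 (6.73).

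The profiles of single enzymes were compared as the mean absolute difference over the 17 arrays in log2 value relative to the sham mean, as a description, since most of it lies between ligated and sham rats. Among the enzymes themselves, Slc27a5 and Baat were closest (0.13) and Cyp7a1 and Cyp8b1 farthest apart (2.82). Among 9727 other genes, the closest to Cyp8b1 were Hal (0.66) and Rab40b (0.71). This distance also depends on the size and spread of a change, so it does not show how closely a gene tracked Cyp8b1. Closest to Amacr were Egf (0.27) and Enpp2 (0.31), to Hsd3b7 Mcee (0.11) and Lactb2 (0.13), to Acox2 Rxra (0.28) and Acot12 (0.30), and to Cyp7a1 Cipc (0.24) and Cdc73 (0.25). The closest to Akr1d1 were Suclg2 and Fbxo7 (0.17 each), to Baat Dvl1 and Mrps18c (0.09 each), to Slc27a5 Rundc1 and Romo1 (0.11 each) and to Cyp27a1 Ahdc1 (0.10) and Gpx4 (0.12).

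Other genes that the pathway needs were lower as well. Of 12 listed, 9 were measured. In ligated saline livers 8 of them fell and 0 rose relative to sham, where 27.3% of measured probe sets fell and 34.2% rose. Their median change was -0.72. Scp2, the peroxisomal thiolase and sterol carrier of side chain shortening, fell by 0.495 ± 0.0624 (limma adjusted p = 3.85e-06). Akr1c14, another reductase of the sterol ring, fell by 1.12 ± 0.149 (limma adjusted p = 6.98e-06). Por, the electron donor of the microsomal P450 enzymes including Cyp7a1 and Cyp8b1, fell by 1.43 ± 0.229, and Abcd3, the peroxisomal importer of the side chain intermediates, fell by 1.01 ± 0.223. The one not called was Fdx1, the electron carrier of mitochondrial Cyp27a1, at 0.27 ± 0.155. In ligated ghrelin livers 7 fell, Fdx1 rose by 0.42 ± 0.162 and Abcd3 was not called (-0.35), where 23.5% of measured probe sets fell and 29.9% rose. Por, Abcd3 and Fdx1 were named after their values were seen. Between ligated ghrelin and ligated saline livers none of the 9 was called by limma. Of them 1 (Abcd3) had an unadjusted p under 0.05 (0.66 ± 0.234, limma adjusted p = 0.119). The share of all measured probe sets at that unadjusted level was not counted.

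Among 15 measured regulators of these enzymes, 8 fell and 1 rose in ligated saline livers relative to sham. Over all measured probe sets 27.3% fell and 34.2% rose. Nr1h4 (FXR), the bile acid receptor, had a mean of 9.65 in ligated saline livers and 10.81 in sham livers, and it fell by 1.16 ± 0.149 (limma adjusted p = 4.98e-06). Hnf4a, an activator of Cyp7a1 and Cyp8b1, fell by 0.793 ± 0.097 (adjusted p = 2.83e-06), and Fgfr4, the hepatocyte receptor of the intestinal hormone that represses Cyp7a1, fell by 0.65 ± 0.109. Dbp, a clock output factor that acts on D-boxes, was at 5.45 in ligated saline livers and 10.07 in sham livers and fell by 4.62 ± 0.566. The labels used here give no time of day for the sampling. Nr0b2 (SHP), the repressor induced by FXR, was at -0.97 ± 0.544 and not called (adjusted p = 0.134), and Nr5a2 (LRH-1), which SHP acts on, was at 0.12 ± 0.116. The 1 that rose, Ppargc1a, was named after its values were seen (0.85 ± 0.301, limma adjusted p = 0.0221), and its sham mean of 3.95 lay at the measurement level. In ligated ghrelin livers 8 fell and 3 rose, Ppargc1a, Foxa2 (0.82 ± 0.232) and Mafg (0.51 ± 0.191), the last 2 also named after their values were seen. In that comparison 23.5% of all measured probe sets fell and 29.9% rose. None of the 15 was called between ligated ghrelin and ligated saline livers by limma. Hnf4a (0.35 ± 0.102, limma adjusted p = 0.0714), Fgfr4 (0.35 ± 0.114, adjusted p = 0.0941) and Foxa2 (0.56 ± 0.232, adjusted p = 0.174) had an unadjusted p under 0.05. The share of all measured probe sets at that unadjusted level was not counted, so this count is not read as a result about the regulators.

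Of the bile acid transporters, 5 of 7 listed were measured, and 2 fell and 1 rose in ligated saline livers. Over all measured probe sets 27.3% fell and 34.2% rose, so with 5 genes these counts are not read as a result about the list. The uptake carrier Slc10a1 fell by 1.29 ± 0.144, the sinusoidal exporter Abcc3 rose by 4.54 ± 0.186, and the canalicular exporter Abcb11, a target of FXR, was at -0.30 ± 0.16 (limma adjusted p = 0.119). The sham mean of Abcc3, 3.85, lay below the measurement level, so the size of its rise is uncertain.

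These are whole livers, in which fewer hepatocytes and less enzyme RNA per hepatocyte cannot be told apart, so the marker lists of the cells present are given beside the enzymes. The mean of the 10 measured hepatocyte markers relative to sham lay between -0.04 and 0.03 in ligated ghrelin livers, between -0.18 and 0.04 in ligated saline livers and between -0.05 and 0.04 in sham livers. Of these markers 1 (Ttr, named after its values were seen, -0.20 ± 0.0627) fell in ligated saline livers and 9 were not called. All 7 measured bile duct markers rose, with a list mean of 4.62 to 5.31 in ligated ghrelin, 4.33 to 6.06 in ligated saline and -0.23 to 0.43 in sham livers. The sham means of Krt7 (3.62), Cftr (2.74) and Sctr (2.80) lay below the measurement level, and that of Cd24 (3.96) lay at it. These genes could enter the test through the ligated groups alone, so the size of their rise and of the list mean is uncertain. Krt19, Epcam and Spp1, with sham means of 5.10, 8.42 and 4.84, rose by 5.03, 3.89 and 5.52 in ligated saline livers. All 8 stellate cell markers rose, with a list mean of 1.98 to 2.47 in ligated ghrelin, 1.95 to 3.37 in ligated saline and -0.24 to 0.34 in sham livers. All 6 measured macrophage markers rose (list mean 0.52 to 1.28 in ligated ghrelin, 0.96 to 1.49 in ligated saline and -0.65 to 0.52 in sham livers), as did the 2 measured neutrophil markers, in both ligated groups. Of 3 measured lymphocyte markers 2 rose in ligated saline livers and 1 in ligated ghrelin livers, and of 4 endothelial markers 1 rose and 1 fell in each. Over all measured probe sets 34.2% rose and 27.3% fell in ligated saline livers, and 29.9% rose and 23.5% fell in ligated ghrelin livers. Between ligated ghrelin and ligated saline livers, 1 of the 8 stellate markers fell (Col3a1, named after its values were seen, -0.68 ± 0.145, limma adjusted p = 0.0342) and no other marker of these lists was called. With each array centred on the hepatocyte markers, 6 of the 9 enzymes were still called lower in ligated saline livers, with Cyp8b1 at -3.76, Amacr at -2.11, Acox2 at -1.39 and Hsd3b7 at -1.33. Because these markers lie near the array maxima, a lower hepatocyte share could be compressed in them, so the centring is another scaling and no test of cell makeup. The part of cell makeup in the enzyme values was not tested.

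**Figure D5:**
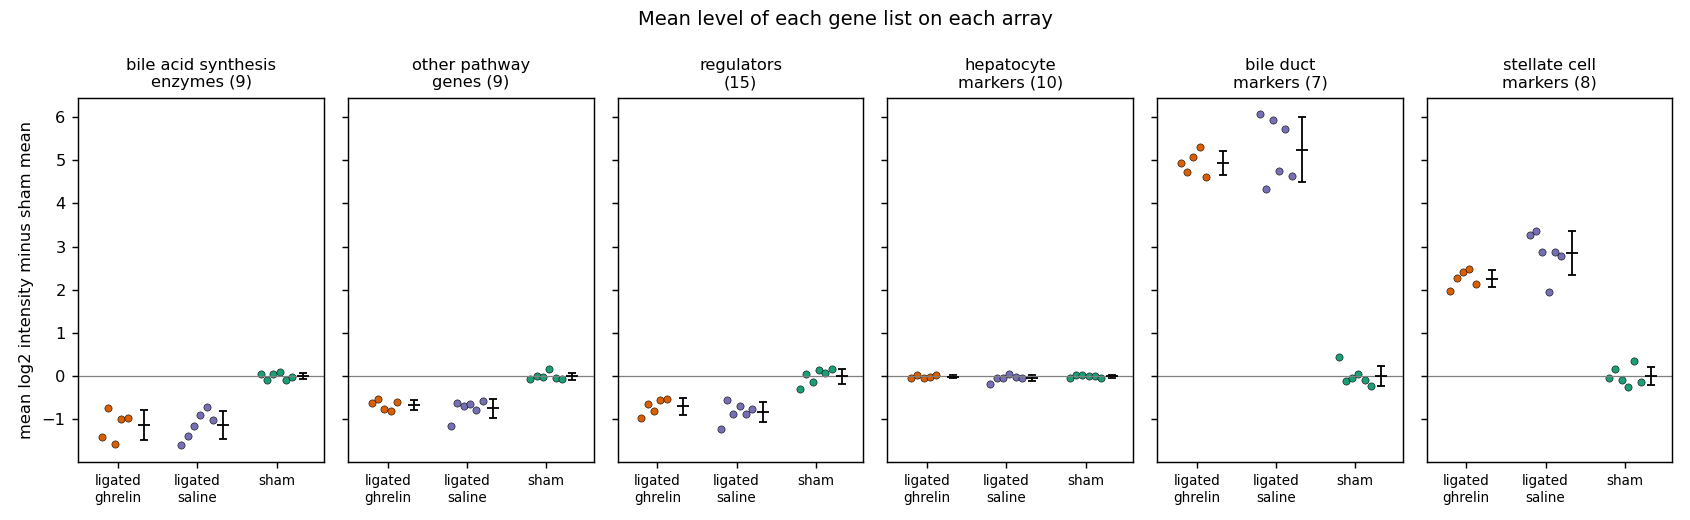
Mean log2 intensity minus the sham mean for 6 gene lists on each array, 1 point per rat with the group mean ± SD and the number of measured genes in the title. The enzymes, the other pathway genes and the regulators lie below 0 in both ligated groups, the hepatocyte markers stay within 0.18 of 0, and the bile duct and stellate cell markers lie well above it.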

How the data were processed

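The authors deposited 1 table of intensity values per probe set and array, made with GCRMA per the submitters' processing notes (version and settings not given in the sources used here). These intensity values are linear, at least 2.14, with none missing, and log2 was taken without a pseudocount. Of 31099 probe sets, 57 controls were left out, and 15965 with an intensity above 15.5, the median of all values, on at least 5 arrays were tested. The platform annotation gives 1 symbol to 20826 probe sets, several to 436 and none to 9780, and 20758 symbols matched RefSeq (GRCr8) with 0 changed. A gene was read at its measured probe set with the highest mean (9736 genes). The model held 1 mean per group over all 17 arrays and no covariates (lmFit and eBayes of limma 3.58.1, under R 4.3.3), with Benjamini-Hochberg adjustment over all tested probe sets. The fit was run on simulated data in which every group had the sham spread. That run does not cover a spread that widens after ligation, as for Cyp8b1, and its outcome is not given here. The number of arrays limits the precision, and no batch is given in the labels.

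The members, steps and gene lists were chosen with earlier results of these data known. The named genes were the 10 enzymes, the 2 closest genes to each, the 2 genes with the lowest p for ligated saline minus sham in each of the pathway, regulator and transporter lists, and 7 set regulators and transporters. The within-array pair differences, tested by exact two-sided permutation, and the second Akr1d1 probe set were added after the data were seen. Of 87 list genes, 76 were on the array and 69 were measured. Alternatives covered normalization, filter, pseudocount, variance model, array weights, probe set choice and leaving out each array.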

Additional observations from a re-analysis of the deposited data

Results flagged for a closer look

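In the sham group, Amacr had a log2 value of 13.04 in sham 5, while the other 5 sham livers lay between 13.74 and 14.10. The gap was 0.658 of the range of the group, above Dixon's 95% critical value for 6 samples. It was the only one of 27 groups of values looked at (9 enzymes in 3 groups) with such a sample, and chance marks about 1 in 20. Sham 5 was also the lowest sham array for Akr1d1 and the highest for Cyp7a1 and Cyp27a1. Without it, the change of Amacr was -2.30 in ligated saline livers and -2.39 in ligated ghrelin livers, so both calls held.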

How the results depend on the processing

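No change of an enzyme reversed with a call under any of the alternatives run. Cyp8b1, Hsd3b7, Amacr and Acox2 stayed called lower against sham in all of them, in both comparisons. The count of called enzymes ran from 6 to 8 for ligated saline minus sham and from 4 to 6 for ligated ghrelin minus sham, both over the other settings and when 1 array was left out. It was 0 throughout for ligated ghrelin minus ligated saline. Without a filter Cyp7b1 also enters the test, but all but 1 of its values lie under the measurement level, so its change is not read.

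The background moved more. Probe sets called for ligated ghrelin minus ligated saline numbered 355, and 541 after quantile normalization, 611 with array medians set equal, 190 centred on hepatocyte markers, 154 without a filter, 564 with a pseudocount of 16 and 118 with the compared groups alone. Leaving out 1 array gave 35 (without ligated ghrelin 2) to 653 (without ligated saline 4). Without a filter, 22230 and 19914 were called for ligated saline and ligated ghrelin minus sham, against 9825 and 8534. The share of higher calls for ligated saline minus sham was 55.7%, and 42.0%, 39.0% and 27.1% after quantile normalization, with medians equal and without a filter. For ligated ghrelin minus sham it was 56.0%, and 43.8%, 43.1% and 25.7%, and for ligated ghrelin minus ligated saline 59.2%, and 67.3% after quantile normalization, 80.4% with medians equal, 65.6% without a filter and 49.5% centred on hepatocyte markers. Quantile normalization and equal medians moved the median ligation change of all probe sets to -0.11 and -0.15. The causes were not tested. No paired analysis was possible because the labels share no replicate numbers between groups.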
